A study of Mus musculus with 24 samples.

Results

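The cell cycle and mitosis genes of mouse heart were 67 of the 23998 rows of the polyA expression table. They were chosen by symbol: the Mcm genes, the Cenp genes, the A, B, D and E type cyclins, the numbered cyclin-dependent kinases, and Mki67, Top2a, Aurka, Aurkb, Bub1, Plk1, Cdc20, Cdc45, Cdc6 and Birc5. No measured value entered this choice, and all 67 symbols were found among the RefSeq gene symbols. Hearts came from 4-month-old transgenic mice on a CD1 background that carried a human MYL2 transgene, in a mutated form (mutTg) or a normal form (wtTg). MYL2 codes for the regulatory light chain of ventricular myosin. The polyA libraries came from 4 mutTg hearts given at 3 days of age, through the jugular vein, an AAV9 virus with the M7.8L shRNA under an H1 promoter and a Cerulean reporter under an RSV promoter. A further 3 came from mutTg hearts given the AAV9 control virus without that shRNA, 3 from untreated mutTg hearts and 3 from wtTg hearts given the control virus. Small RNA had also been sequenced from 4, 3, 2 and 2 hearts of these groups. The genotype field of the labels read RLC-47K L6 for every sample, so the genotype was taken from the sample names, and no source used here names the promoter that drives the transgene.

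Cells divide through a fixed order of steps. D and E type cyclins with Cdk4, Cdk6 and Cdk2 carry a cell out of the G1 phase, the Mcm helicase opens DNA at replication origins in S phase, and cyclins A and B with Cdk1, helped by the Polo and Aurora kinases, drive mitosis. Centromere proteins then tie the chromosomes to the spindle. Most adult heart muscle cells do not divide, so in whole heart tissue such RNA can come from any cell type, and more dividing cells and more RNA per dividing cell cannot be told apart.

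Levels are given as median-aligned FPKM: fragment levels normalised to transcript length and library size, after each library was shifted to a common median. The shift ran from -0.54 (untreated mutTg replicate 10) to 0.80 on the log2 scale (shRNA replicate 8). Absolute read depth is unknown, but the steps between low FPKM values gave relative depths: 1.00 to 1.52 in the shRNA hearts, 1.62 to 3.96 in the control-virus mutTg hearts, 1.97 to 4.91 in the untreated mutTg hearts and 1.38 to 2.31 in the wtTg hearts. The human transgene row hMyl2 held 228.8 (replicate 5), 419.6 (replicate 6) and 317 FPKM (replicate 7) among shRNA hearts, but 0 for replicate 8 and for every heart of the remaining groups. A row for the shRNA held only zeros. Neither row therefore checks the knockdown or the genotype labels. Replicate 8 stood apart from the other shRNA hearts, so results are also given without it. Rn45s, the ribosomal RNA precursor, was 16277 to 22526 FPKM in shRNA replicates 5 to 7 and was listed at 0 in replicate 8 and in all control-virus mutTg hearts. It was also at 0 in 1 untreated mutTg and 1 wtTg heart, and 8645 to 18965 FPKM in the rest. The part of what this row marks in the results was not tested. Heart muscle markers were abundant in every library, summing to at least 34764 aligned FPKM over 6 genes. By Ddx3y, a Y-linked gene, shRNA replicates 5, 6 and 7 were male and replicate 8 and all 3 control-virus mutTg hearts were female. The untreated mutTg and the wtTg group each had 2 males and 1 female. Sex was thus uneven between the groups.

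The mitotic genes, 12 of the 67, were low in all hearts but highest in the mutTg hearts that had not received the shRNA. Their summed level was 12.7, 16.5, 7.51 and 25.6 aligned FPKM in shRNA replicates 5, 6, 7 and 8 and 44.3, 24.3 and 24.8 in control-virus mutTg replicates 1, 2 and 3. It was 31.1, 31.2 and 37.7 aligned FPKM in untreated mutTg hearts and 11.3, 13.1 and 14.8 in wtTg hearts. Every mutTg heart without the shRNA thus lay above every wtTg heart. Of the shRNA hearts, replicates 5, 6 and 7 lay at 7.51 to 16.5, below all mutTg hearts without the shRNA, while replicate 8 lay within the range of the control-virus mutTg hearts. The group means were 15.6 ± 7.64 in shRNA hearts (SD, n = 4), 31.1 ± 11.4 in control-virus mutTg hearts, 33.3 ± 3.81 in untreated mutTg hearts and 13.1 ± 1.77 in wtTg hearts (SD, n = 3 each). These sums are a description with no test.

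**Figure D1:**
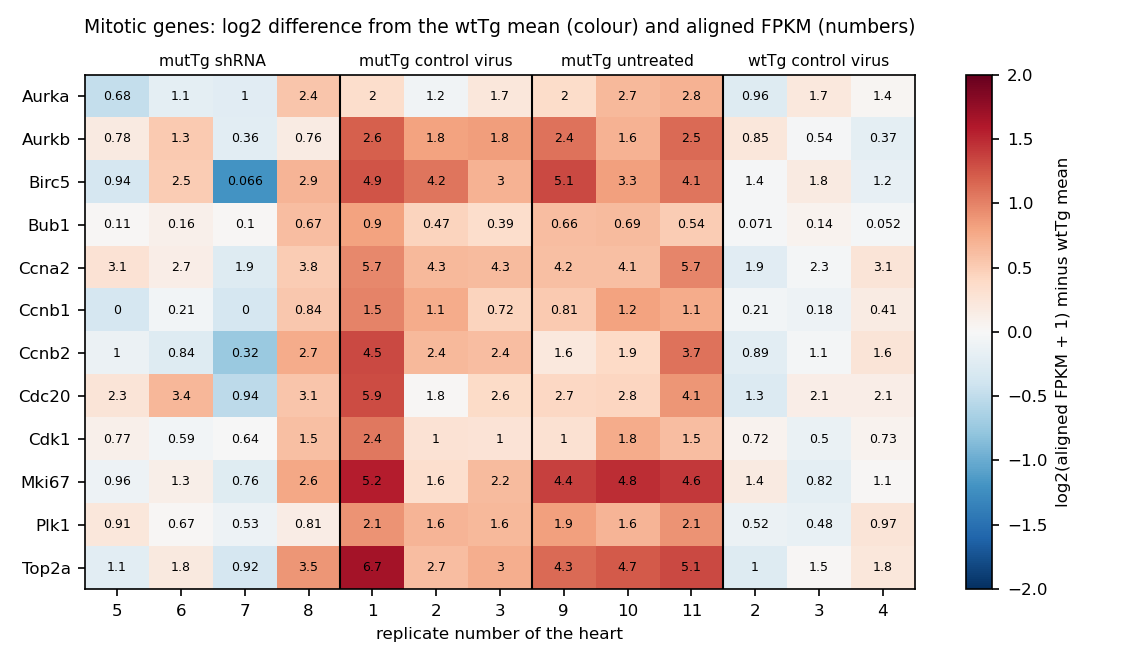
Levels of the 12 mitotic genes in the 13 hearts, by group and replicate number. Numbers are aligned FPKM, and colour is log2(aligned FPKM + 1) minus the mean of the wtTg hearts, red above and blue below it. The 6 mutTg hearts without the shRNA are red in most genes, whereas shRNA replicates 5 and 7 are mostly pale or blue, replicate 6 is red in some genes (Cdc20 at 3.40 aligned FPKM) and replicate 8 in more, with a summed 25.6 aligned FPKM.

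Mki67, coding for the proliferation marker Ki-67, was 0.959, 1.27, 0.761 and 2.57 aligned FPKM in the 4 shRNA hearts and 5.21, 1.63 and 2.25 in the control-virus mutTg hearts. It was 4.41, 4.84 and 4.56 aligned FPKM in untreated mutTg hearts and 1.36, 0.818 and 1.13 in wtTg hearts. The untreated mutTg hearts were close to each other and far above the wtTg hearts, and among the control-virus mutTg hearts replicate 1 was the highest by a wide margin. Top2a, the topoisomerase that disentangles replicated DNA, was 1.08, 1.76, 0.919 and 3.47 aligned FPKM in shRNA hearts, 6.68, 2.70 and 3.02 in control-virus mutTg hearts, 4.29, 4.66 and 5.06 in untreated mutTg hearts, and 1.02, 1.47 and 1.84 in wtTg hearts. All 6 mutTg hearts without the shRNA were above the wtTg hearts, and shRNA replicate 8 lay among them.

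Plk1, the Polo kinase of mitotic entry, was 0.914, 0.669, 0.530 and 0.814 aligned FPKM in shRNA hearts and 2.07, 1.62 and 1.58 in control-virus mutTg hearts. It was 1.89, 1.63 and 2.07 aligned FPKM in untreated mutTg hearts and 0.518, 0.475 and 0.972 in wtTg hearts. Here shRNA replicate 8 lay with the other shRNA hearts, and neither the shRNA nor the wtTg hearts overlapped the other mutTg hearts. Aurkb, the Aurora kinase of the chromosomal passenger complex, was 0.784, 1.27, 0.364 and 0.761 aligned FPKM in shRNA hearts, 2.61, 1.75 and 1.80 in control-virus mutTg hearts, 2.35, 1.55 and 2.47 in untreated mutTg hearts, and 0.845, 0.543 and 0.370 in wtTg hearts. Birc5 codes for survivin, a partner of Aurkb in that complex, and was 0.944, 2.50, 0.0655 and 2.93 aligned FPKM in shRNA hearts, 4.85, 4.16 and 2.98 in control-virus mutTg hearts, 5.11, 3.33 and 4.12 in untreated mutTg hearts, and 1.43, 1.79 and 1.18 in wtTg hearts. Aurkb and Birc5 also separated the 6 mutTg hearts without the shRNA from all others, for Birc5 by a narrow margin over shRNA replicate 8.

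**Figure D2:**
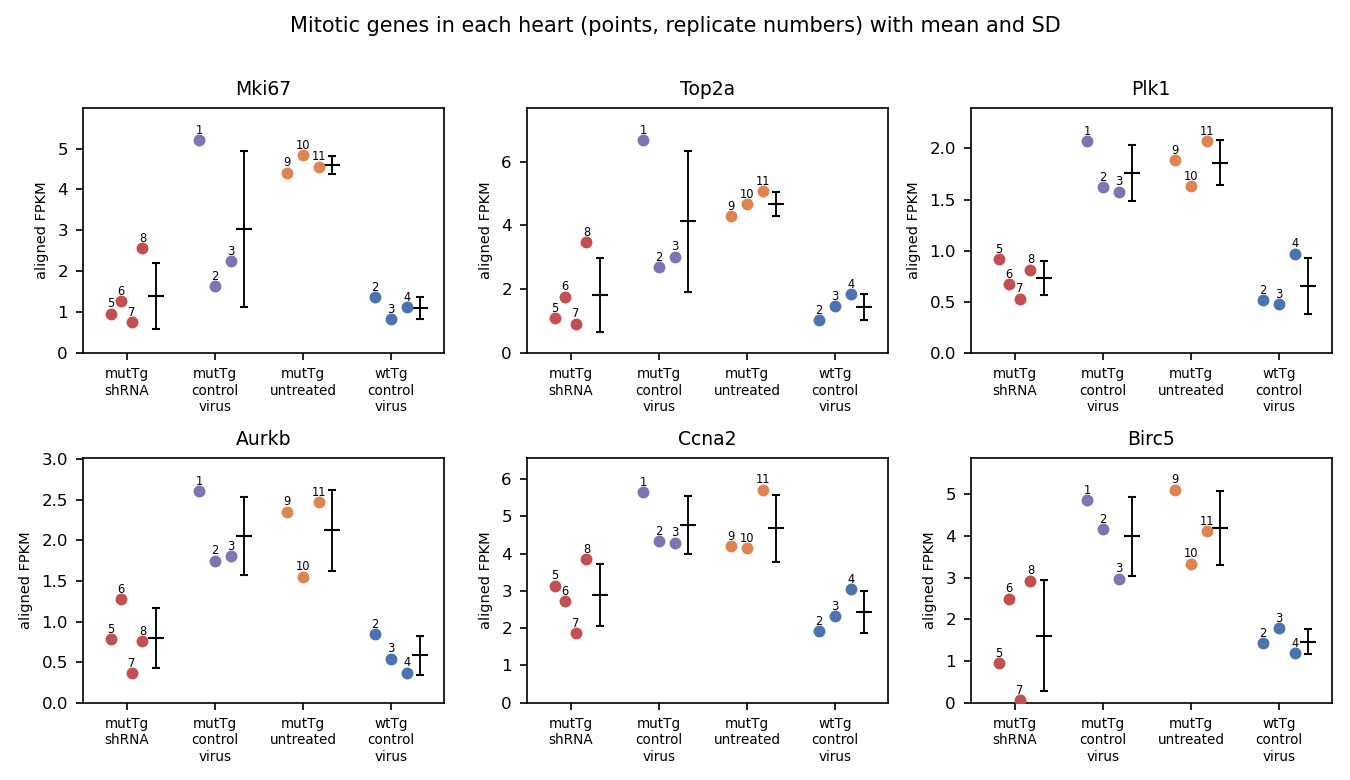
Aligned FPKM of 6 mitotic genes in each heart, with the replicate number beside each point and the group mean and SD in black (n = 4, 3, 3 and 3 from left to right). Aurkb is at most 1.27 aligned FPKM in every shRNA and wtTg heart and at least 1.55 in the other mutTg hearts, and Mki67 and Top2a are highest in control-virus mutTg replicate 1.

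Mutant and normal transgene hearts under the same control virus were compared for differences that go with the transgene. Of the 10 mitotic genes that passed the filter of a mean of 1 aligned FPKM, all had a positive difference, 4 rose and 0 fell by limma. After quantile normalization 9 of 10 differences were positive, and likewise 9 of 10 with sex as a covariate. Over all members 11 of the 53 tested were called, 8 higher and 3 lower, where 24.4% of all genes tested were called, 12.6% higher and 11.7% lower, so the members as a whole were called no more often than other genes. Aurkb rose by 0.94 on the log2 scale (SE 0.22, adjusted p = 0.0158), 1.92-fold. Top2a rose by 1.00 (SE 0.32, adjusted p = 0.0425), Ccna2, coding for cyclin A2, by 0.75 (SE 0.21, adjusted p = 0.0251) and Plk1 by 0.74 (SE 0.18, adjusted p = 0.0163). In 8 of the 10 genes the groups did not overlap, where 26.9% of all genes tested did so with the mutTg hearts higher. The median difference of the 10 was 0.80 on the log2 scale, against -0.0062 over all genes tested. The filter took the mean over all 13 hearts. Aurkb, Plk1 and Cdk1 averaged 0.586, 0.655 and 0.650 aligned FPKM in wtTg hearts and 0.796, 0.732 and 0.872 in shRNA hearts. Here and in the comparisons below they thus passed only through the mutTg hearts without the shRNA. Fitted with every row above 0, all 12 mitotic genes had a positive difference and 5 rose, where 8.01% of all genes rose.

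The mitotic genes that were tested but not called there also had positive differences. These were 1.01 for Birc5 (adjusted p = 0.0758), 0.86 for Ccnb2 (adjusted p = 0.0870), 0.85 for Mki67 (adjusted p = 0.0629) and 0.54 for Cdk1 (adjusted p = 0.125) by limma. The difference was 0.57 (SE 0.34, adjusted p = 0.229) for Cdc20, the activator of the anaphase-promoting complex, and smallest of the 10 for Aurka, the Aurora kinase of the spindle poles, at 0.17 (SE 0.25, adjusted p = 0.647). Bub1, a spindle checkpoint kinase, and Ccnb1, coding for cyclin B1, were below the filter. Fitted with every row above 0, they differed by 0.54 (adjusted p = 0.0435) and 0.73 (adjusted p = 0.0466). Without control-virus mutTg replicate 1, the heart with the highest Mki67, 0 of the 10 mitotic genes and 2 of the 53 members were called. This was beside 8.4% of all genes. Without wtTg replicate 2 or 3 the mitotic calls numbered 1 each, where 4.14% and 8.38% of all genes were called. Without shRNA replicate 8, which enters only the shared spread, the mitotic calls numbered 7. Member calls were then 20 (15 higher, 5 lower), where 39.7% of all genes were called. On the deposited scale 0 of 10 mitotic genes were called, and member calls were 2, 0 higher and 2 lower, where 2.15% of all genes were called higher and 7.35% lower. With sex as a covariate 0 members were called, where 2.54% of all genes were called. The control-virus mutTg hearts were all female while only 1 wtTg heart was. That heart, wtTg replicate 4, had a mitotic sum of 14.8 aligned FPKM, and the female control-virus mutTg hearts had 24.3 to 44.3. With only 1 female wtTg heart, sex and genotype cannot be told apart in this comparison. With the covariate and without replicate 8, 7 members were called, 3 higher and 4 lower, and 1 of these was mitotic. At this setting 27.7% of all genes were called, 13.7% higher and 14% lower.

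Untreated mutTg hearts were also set against the wtTg hearts; here both genotype and virus differ, the wtTg hearts are the same ones as above, and the sexes are even (2 males and 1 female each). Mki67 rose by 1.42 on the log2 scale (SE 0.31, adjusted p = 0.0122), 2.68-fold, Top2a by 1.23 (adjusted p = 0.0214), Aurkb by 0.98 (adjusted p = 0.0138), Plk1 by 0.80 (adjusted p = 0.0125) and Ccna2 by 0.73 (adjusted p = 0.0266) by limma. Thus 5 of 10 mitotic genes rose and 0 fell, and in 9 of 10 the groups did not overlap, where 25.7% of all genes tested did so with the mutTg hearts higher. The median difference was 0.76, against 0.0094 over all genes tested. Of the 53 members 11 were called, 7 higher and 4 lower, where 26% of all genes were called, 12.1% higher and 13.9% lower. With sex as a covariate the count was also 11, and 5 mitotic genes were called, where 31.5% of all genes were called. Without shRNA replicate 8 it was 18 (12 higher, 6 lower), where 39.9% of all genes were called. On the deposited scale it was 7 (2 higher, 5 lower), with 1 mitotic gene called, where 1.54% of all genes were called higher and 19.2% lower. Leaving out untreated replicate 10, wtTg replicate 2 or wtTg replicate 3 left 5 member calls each, beside 7.29%, 6.36% and 10% of all genes. Leaving out untreated replicate 11 or wtTg replicate 4 left 7, beside 14.7% and 10% of all genes.

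The shRNA hearts were compared with the same control-virus mutTg hearts for differences that go with the M7.8L shRNA. The mitotic genes were lower: 4 of 10 fell and 0 rose by limma, and all 10 differences were negative. However, 2 of the 10 turned positive on the deposited scale. With sex as a covariate 1 was positive, and likewise 1 without control-virus mutTg replicate 1. Birc5 fell by 1.09 on the log2 scale (SE 0.37, adjusted p = 0.0470), Aurkb by 0.78 (SE 0.21, adjusted p = 0.0242), Plk1 by 0.67 (SE 0.17, adjusted p = 0.0206) and Ccna2 by 0.58 (SE 0.19, adjusted p = 0.0457). In these 4 genes the groups did not overlap, where 11.4% of all genes tested did so with the shRNA hearts lower. Top2a differed by -0.87 (adjusted p = 0.0533), Ccnb2 by -0.95 (adjusted p = 0.0514), Mki67 by -0.71 (adjusted p = 0.0865), Cdk1 by -0.38, Cdc20 by -0.33 and Aurka by -0.25. The median over the 10 was -0.69, against 0.0044 over all genes tested. Of the 53 members 9 were called, 3 higher and 6 lower, where 24.2% of all genes were called, 12% higher and 12.2% lower.

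Without shRNA replicate 8, 7 of the 10 mitotic genes and 23 of 53 members (7 higher, 16 lower) were called, where 48.2% of all genes were called, 24.3% higher and 23.9% lower. Ccnb2 fell by 1.23 (adjusted p = 0.00226), Top2a by 1.12 (adjusted p = 0.00282) and Mki67 by 0.92 (adjusted p = 0.0105). The mitotic calls were fewer under several other settings. On the deposited scale they were 0 (9 members called, all higher, where 33.4% of all genes were called higher and 1.66% lower). After quantile normalization they were also 0 (5 members called, 3 higher and 2 lower), although 24.5% of all genes were called. With sex as a covariate or in a fit of the compared groups alone they were 0, where 0.186% and 0.24% of all genes were called. Without control-virus mutTg replicate 1, 2 or 3 they were 0, where 4.27%, 4.31% and 4.15% of all genes were called. Without shRNA replicate 5, 6 or 7, 0 or 1 mitotic gene was called, where 4.05%, 5.62% and 5.97% of all genes were called. With sex as a covariate and replicate 8 left out, 6 members were called, 4 higher and 2 lower, and 1 of these was mitotic. At this setting 29.7% of all genes were called, 15.5% higher and 14.2% lower. All 3 control-virus mutTg hearts were female and 3 of 4 shRNA hearts male, so within these groups the separation of sex from the shRNA rests on replicate 8, the female shRNA heart. Its mitotic sum of 25.6 aligned FPKM lay within the 24.3 to 44.3 of the control-virus mutTg hearts.

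The shRNA hearts were also set against the wtTg hearts that serve in the earlier comparisons. Here 0 of 53 members were called by limma and 3 had an unadjusted p under 0.05, where 0.085% of all genes tested were called and 11.7% had an unadjusted p under 0.05. Those 3 were Cdk4 (0.27), Cenpc1 (0.43) and Mcm9 (0.34, log2 differences). Without replicate 8 the members called stayed at 0, while 5.62% of all genes were called. The mitotic genes differed by -0.09 to 0.24 on the log2 scale, with a median of 0.13. This does not show that the groups were alike: the SE of Mki67 was 0.29 and that of Birc5 0.37. Between control-virus and untreated mutTg hearts 0 members and 0% of all genes tested were called. Of the members 5 had an unadjusted p under 0.05, against 10% of all genes, and none of them was mitotic: Ccnd1 (0.39), Ccnd3 (0.29), Cdk13 (-0.26), Cdk19 (-0.30) and Cenpp (-0.74). Mki67 differed by -0.57 (SE 0.31, adjusted p = 0.554), with control-virus replicate 1 above all untreated hearts and replicates 2 and 3 below them.

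The number of sequenced fragments behind the low genes was small. For 15 members the FPKM steps gave whole numbers, read as the smallest that fit within 0.1 of a fragment, so that true numbers may be a common multiple of them. Plk1 rested on 8, 6, 5 and 11 fragments in shRNA hearts, 30, 18 and 31 in control-virus mutTg hearts, 22, 18 and 46 in untreated mutTg hearts, and 7, 5 and 9 in wtTg hearts. Bub1 rested on 2 to 19 fragments in shRNA, 11 to 27 in control-virus mutTg, 16 to 25 in untreated mutTg and 1 to 3 in wtTg hearts, and Ccnb1 on 0 to 12, 13 to 23, 10 to 26 and 2 to 4 in the same order of groups. The 2 zeros of Ccnb1 were in shRNA replicates 5 and 7. The mutTg hearts without the shRNA were also the more deeply sequenced ones on the whole, and the part of depth in these results was not tested.

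Markers of some other cell types moved with the mitotic genes and those of others did not. Summed macrophage markers (9 genes) were 388 to 1613 aligned FPKM in shRNA hearts, 1223 to 1818 in control-virus mutTg hearts, 1093 to 1491 in untreated mutTg hearts and 462 to 494 in wtTg hearts, and 7 of 9 rose and 0 fell in control-virus mutTg against wtTg hearts, where 12.6% of all genes rose. Summed fibroblast markers (7 genes) were 917 to 2349, 2327 to 2671, 2364 to 2545 and 859 to 1130 aligned FPKM in the same order of groups, and 5 of 7 rose. Summed lymphocyte markers (7 genes) were 1.83 to 10.2, 8.50 to 10.9, 6.27 to 7.43 and 1.85 to 2.62 aligned FPKM. Endothelial markers (6 genes) ran the other way, at 409 to 488 in shRNA, 291 to 361 in control-virus mutTg, 309 to 387 in untreated mutTg and 423 to 434 in wtTg hearts. Against control-virus mutTg hearts, 6 of 9 macrophage and 5 of 7 fibroblast markers fell in shRNA hearts and 5 of 6 endothelial markers rose, where 12.2% of all genes fell and 12% rose. Heart muscle markers (6 genes) summed to 34764 to 74519 aligned FPKM in shRNA, 37546 to 41081 in control-virus mutTg, 36658 to 38567 in untreated mutTg and 52757 to 54447 in wtTg hearts, lower in every mutTg heart without the shRNA than in any wtTg heart. Smooth muscle markers (5 genes) summed to 1631 to 2681, 2638 to 3269, 3333 to 3621 and 1608 to 2106 aligned FPKM in the same order of groups. Most of this sum was Des, at 2437 to 3108 aligned FPKM in control-virus mutTg and 1343 to 1848 in wtTg hearts. Myh11 ran the other way, at 5.82 to 10.1 and 13.5 to 16.1 aligned FPKM. Of the 5 genes 2 rose and 2 fell between these groups (median -0.26), where 12.6% of all genes rose and 11.7% fell. Among the shRNA hearts, replicate 8 was the highest in every macrophage and fibroblast marker and the lowest in every heart muscle marker. Lyz2 was 199, 263 and 204 aligned FPKM in replicates 5, 6 and 7 and 872 in replicate 8. In the same order Dcn was 704, 882, 725 and 1404 and Tnni3 12561, 14990, 13059 and 4523. Replicate 8 thus sets the upper end of the macrophage and fibroblast sums and the lower end of the heart muscle sum. The part of these cell types in the mitotic result was not tested.

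Promoters of the mitotic genes are shown because genes of this group are known to share a pair of sequence elements, the cell cycle homology region (CHR) and the CCAAT box, through which the DREAM complex and NF-Y act. RefSeq sequences of the build GRCm38.p6 held 63 promoters of 58 members, each from 250 bases before to 50 bases after the gene start. Only the 150 bases before the start are printed, 5′ to 3′ on the gene's strand, with capitals for matches on either strand. The letters searched for the CHR were TTTGAA, whose reverse complement reads TTCAAA. Those of the CCAAT box read ATTGG in reverse. For E2F they were TTCCCGC or else the run TTGGCGC.
Mki67, chr7:135716380-135716529, minus strand: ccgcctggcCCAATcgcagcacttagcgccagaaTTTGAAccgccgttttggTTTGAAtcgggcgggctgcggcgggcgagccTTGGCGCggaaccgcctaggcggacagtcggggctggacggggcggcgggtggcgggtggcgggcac
Top2a, chr11:99024190-99024339, minus strand: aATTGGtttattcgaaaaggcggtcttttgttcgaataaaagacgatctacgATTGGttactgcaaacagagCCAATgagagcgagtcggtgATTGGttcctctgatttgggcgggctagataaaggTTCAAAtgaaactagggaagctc
Plk1, chr7:122159285-122159434, plus strand: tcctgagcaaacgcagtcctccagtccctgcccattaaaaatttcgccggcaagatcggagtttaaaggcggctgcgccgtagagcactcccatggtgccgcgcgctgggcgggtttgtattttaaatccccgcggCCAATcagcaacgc
Birc5, chr11:117849087-117849236, plus strand: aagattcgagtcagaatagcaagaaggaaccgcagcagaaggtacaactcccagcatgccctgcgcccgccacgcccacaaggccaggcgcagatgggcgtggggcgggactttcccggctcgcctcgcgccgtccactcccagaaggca
Cenpf, chr1:189688087-189688236, minus strand: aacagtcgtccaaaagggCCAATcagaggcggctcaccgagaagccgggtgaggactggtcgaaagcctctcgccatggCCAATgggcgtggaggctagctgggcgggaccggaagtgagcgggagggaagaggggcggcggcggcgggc

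Within the whole 300-base window, TTTGAA was found in 7 of 10 promoters of the 12 mitotic genes (70%; Aurkb and Ccna2 had no entry), against 23.8% of the 63 member promoters and 17.9% of all 32851 promoters. CCAAT was found in 9 of the 10 (90%), against 65.1% of member promoters and 37.4% of all. Both were present in 70% of mitotic and 6.95% of all promoters. Top2a held 6 CCAAT matches, from -227 to -58 relative to the start, and TTTGAA at -179 and -23. Mki67 held TTTGAA at -116 and -98, and Plk1 held it at 31, after the start, with CCAAT at -14. Birc5 held none of the searched letters in this window although its level separated the groups as those of Plk1 and Aurkb did. Cenpf, whose level ran the opposite way, held CCAAT at -132 and -71 and TTTGAA at 3. The E2F letters were found in 7 of 11 promoters of replication licensing genes (63.6%), in 3 of 10 mitotic promoters (30%) and in 6.81% of all, and TTTGAA in 0 of 6 promoters of G1 cyclins and kinases. A match of letters is a description and not evidence of a bound factor.

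Of the 8 G1 cyclins and kinases, all tested, 1 rose and 0 fell in control-virus mutTg against wtTg hearts, where 12.6% of all genes rose and 11.7% fell. This was Ccnd1, coding for cyclin D1, which binds Cdk4 and Cdk6. It was 44.8, 48.3, 48.8 and 62.2 aligned FPKM in shRNA hearts, 98.1, 63.0 and 66.9 in control-virus mutTg hearts, 47.5, 61.8 and 61.6 in untreated mutTg hearts and 42.4, 49.3 and 44.9 in wtTg hearts. The control-virus mutTg hearts were the highest group, without overlap with any other, and replicate 1 again stood far above the rest. Ccnd1 rose by 0.70 in control-virus mutTg against wtTg hearts (SE 0.17, adjusted p = 0.0185), fell by 0.55 in shRNA against control-virus mutTg hearts (SE 0.16, adjusted p = 0.0327; -0.04 and adjusted p = 0.905 on the deposited scale), and differed by 0.31 between untreated mutTg and wtTg hearts (SE 0.17, adjusted p = 0.198). Ccnd2 differed by 0.74 between control-virus mutTg and wtTg hearts (SE 0.33, adjusted p = 0.107) and Ccnd3 by 0.16 (adjusted p = 0.352).

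Cdk6 rose by 0.78 in untreated mutTg against wtTg hearts (SE 0.21, adjusted p = 0.0237), with 4.38, 5.25 and 4.44 aligned FPKM in untreated mutTg hearts and 3.65, 1.67 and 1.90 in wtTg hearts. Its difference was 0.53 in control-virus mutTg against wtTg hearts (adjusted p = 0.0853). Cdk4 was much higher, at 52.9 to 85.2 aligned FPKM over the 13 hearts, with differences of 0.17 (adjusted p = 0.326) in control-virus mutTg and -0.07 (adjusted p = 0.670) in untreated mutTg against wtTg hearts. The E type cyclins Ccne1 and Ccne2 and their partner Cdk2 lay at 1.13 to 1.96, 1.62 to 3.06 and 6.93 to 11.7 aligned FPKM. Their differences in control-virus mutTg against wtTg hearts were 0.12, 0.03 and -0.23 on the log2 scale (adjusted p = 0.583, 0.925 and 0.295).

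Of 9 tested genes of replication licensing and the helicase, 1 rose and 1 fell in control-virus mutTg against wtTg hearts (12.6% and 11.7% of all genes), 0 rose and 1 fell in untreated mutTg against wtTg hearts (12.1% and 13.9%), and 1 rose and 0 fell in shRNA against control-virus mutTg hearts (12% and 12.2%). Mcm6, a subunit of the helicase, was 7.08, 8.89, 7.27 and 12.3 aligned FPKM in shRNA hearts, 12.3, 9.03 and 9.69 in control-virus mutTg hearts, 6.83, 8.06 and 9.11 in untreated mutTg hearts, and 4.81, 8.07 and 6.38 in wtTg hearts. It rose by 0.62 in control-virus mutTg against wtTg hearts (SE 0.21, adjusted p = 0.0493). Mcm2, another subunit, was 4.23, 6.30, 4.19 and 4.36 aligned FPKM in shRNA hearts, 6.82, 3.72 and 4.78 in control-virus mutTg hearts, 3.28, 3.45 and 4.41 in untreated mutTg hearts and 5.76, 5.85 and 7.87 in wtTg hearts. All untreated mutTg hearts lay below all wtTg hearts and Mcm2 fell by 0.66 between them (SE 0.20, adjusted p = 0.0342), opposite to Mki67 in the same hearts.

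Differences in control-virus mutTg against wtTg hearts were 0.35 for Mcm3, 0.01 for Mcm4, 0.33 for Mcm5 and 0.27 for Mcm7, and 0.34 for Cdc45, which completes the active helicase (adjusted p = 0.359, 0.978, 0.365, 0.318 and 0.156 by limma). Mcm8 forms a separate complex with Mcm9 that acts in DNA repair by recombination. It was 3.40, 3.87, 3.35 and 2.88 aligned FPKM in shRNA hearts, 1.73, 1.98 and 1.68 in control-virus mutTg hearts, 2.08, 2.03 and 2.00 in untreated mutTg hearts and 2.70, 2.83 and 3.16 in wtTg hearts. Every mutTg heart without the shRNA was below every other heart. Mcm8 rose by 0.64 in shRNA against control-virus mutTg hearts (SE 0.12, adjusted p = 0.0117) and fell by 0.48 in control-virus mutTg against wtTg hearts (SE 0.13, adjusted p = 0.0258), while untreated mutTg against wtTg hearts differed by -0.36 (adjusted p = 0.0642). Its partner Mcm9 differed by 0.42 in control-virus mutTg against wtTg hearts (adjusted p = 0.0680). Cdc6, which loads the helicase, and Mcm10 stayed below the filter, with 0.105 to 0.647 and 0.179 to 0.920 aligned FPKM over the 13 hearts.

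**Figure D3:**
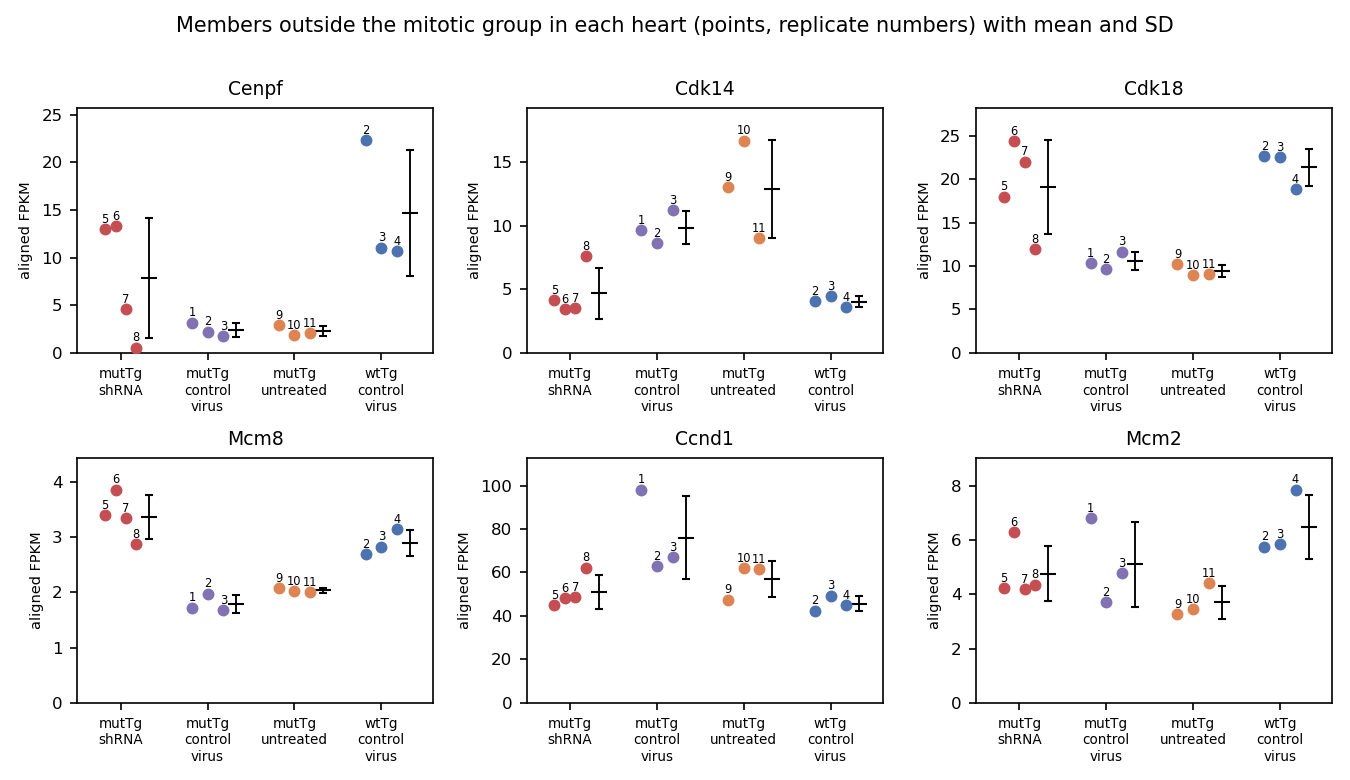
Aligned FPKM of 6 members outside the mitotic group in each heart, with the replicate number beside each point and the group mean and SD in black. Cenpf, Cdk18 and Mcm8 are low in all 6 mutTg hearts without the shRNA, at most 3.17, 11.7 and 2.08 aligned FPKM, whereas Cdk14 is high there.

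Of 13 tested centromere proteins, 1 rose and 1 fell in control-virus mutTg against wtTg hearts, where 12.6% of all genes rose and 11.7% fell. Cenpf, coding for a large protein of kinetochores in dividing cells, was 13, 13.3, 4.57 and 0.547 aligned FPKM in shRNA hearts, 3.17, 2.24 and 1.76 in control-virus mutTg hearts, 2.92, 1.89 and 2.09 in untreated mutTg hearts and 22.3, 11.1 and 10.7 in wtTg hearts. All 6 mutTg hearts without the shRNA lay far below the wtTg hearts, and shRNA replicate 8 was the lowest of all 13. It fell by 2.15 on the log2 scale in control-virus mutTg against wtTg hearts (SE 0.65, adjusted p = 0.0345), 4.45-fold, and by 2.19 in untreated mutTg against wtTg hearts (SE 0.65, adjusted p = 0.0313). In shRNA against control-virus mutTg hearts it differed by 0.95 (SE 0.61, adjusted p = 0.260), and without replicate 8 it rose by 1.63 (adjusted p = 0.00204). Cenpf is usually counted with the mitotic genes, and here its difference was opposite in sign to those of all 10 in both comparisons with wtTg hearts. That the mitotic genes shared 1 sign thus depends on counting Cenpf with the centromere proteins.

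Cenpt, which joins the inner centromere to the outer kinetochore, was 2.64, 2.15, 1.23 and 4.28 aligned FPKM in shRNA hearts, 4.97, 4.63 and 4.17 in control-virus mutTg hearts, 1.99, 3.73 and 3.75 in untreated mutTg hearts and 1.90, 1.59 and 2.63 in wtTg hearts. It rose by 0.89 in control-virus mutTg against wtTg hearts (SE 0.28, adjusted p = 0.0388), and untreated mutTg against wtTg hearts differed by 0.43 (adjusted p = 0.261). Cenpp was the only centromere gene called in shRNA against control-virus mutTg hearts, higher by 0.77 (SE 0.26, adjusted p = 0.0487). Its groups overlapped, with 3.59 to 6.97 aligned FPKM in shRNA hearts and 3.80, 1.09 and 3.01 in control-virus mutTg hearts, so that the low control-virus replicate 2 weighs in it. Cenpa, the histone variant that marks centromeres, was far more abundant at 24.7 to 56.6 aligned FPKM, and differed by -0.05 in control-virus mutTg against wtTg hearts (adjusted p = 0.864). Cenpb, a DNA-binding centromere protein, was the most abundant member, at 216 to 327 aligned FPKM in the 13 hearts, with no call in any comparison. Of the 19 centromere genes 6 were below the filter, among them the mitotic motor Cenpe (0.123 to 1.10 aligned FPKM).

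Of 13 tested kinases outside these steps, 1 rose and 1 fell in control-virus mutTg against wtTg hearts (12.6% and 11.7% of all genes). In untreated mutTg against wtTg hearts 1 rose and 2 fell (12.1% and 13.9% of all genes). Cdk14, a kinase that works with cyclin Y in Wnt signalling, was 4.13, 3.43, 3.52 and 7.62 aligned FPKM in shRNA hearts, 9.68, 8.62 and 11.3 in control-virus mutTg hearts, 13, 16.7 and 9.00 in untreated mutTg hearts and 4.09, 4.44 and 3.6 in wtTg hearts. The 6 mutTg hearts without the shRNA were the highest, and shRNA replicate 8 lay between them and the rest. Cdk14 rose by 1.10 in control-virus mutTg (SE 0.25, adjusted p = 0.0146) and by 1.43 in untreated mutTg against wtTg hearts (SE 0.25, adjusted p = 0.00610), and fell by 0.99 in shRNA against control-virus mutTg hearts (SE 0.24, adjusted p = 0.0194). Cdk18, a kinase of the PCTAIRE family, was 18.0, 24.4, 22 and 12 aligned FPKM in shRNA hearts, 10.3, 9.63 and 11.7 in control-virus mutTg hearts, 10.2, 8.97 and 9.05 in untreated mutTg hearts and 22.7, 22.5 and 18.8 in wtTg hearts. It fell by 0.95 in control-virus mutTg (SE 0.20, adjusted p = 0.0116) and by 1.10 in untreated mutTg against wtTg hearts (SE 0.20, adjusted p = 0.00679), and rose by 0.76 in shRNA against control-virus mutTg hearts (SE 0.19, adjusted p = 0.0210).

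Cdk16, of the same family as Cdk18, was 74.9, 67.0 and 78.8 aligned FPKM in untreated mutTg hearts and 107, 101 and 127 in wtTg hearts, and fell by 0.59 (SE 0.20, adjusted p = 0.0475). In control-virus mutTg against wtTg hearts it differed by -0.43 (adjusted p = 0.129). The remaining 10 tested kinases of this group were called in no comparison; they include Cdk7 and Cdk9, which phosphorylate RNA polymerase, and Cdk8 and Cdk19 of the Mediator complex. Over all members 17 were called in at least 1 comparison. That share was not counted over all genes, of which 24.4%, 24.2% and 26% were called in the 3 comparisons with member calls. Aurkb, Ccna2, Cdk14, Cdk18 and Plk1 were called in 3 comparisons each, and the control-virus mutTg against wtTg comparison shares hearts with both others. Cdk14 and Cdk18 were not counted among the mitotic genes here. Ccna1, Ccnb3 and Ccnb1ip1, known from germ cells, were below the filter, and Ccnb3 was listed at 0 in all 13 hearts.

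**Figure D4:**
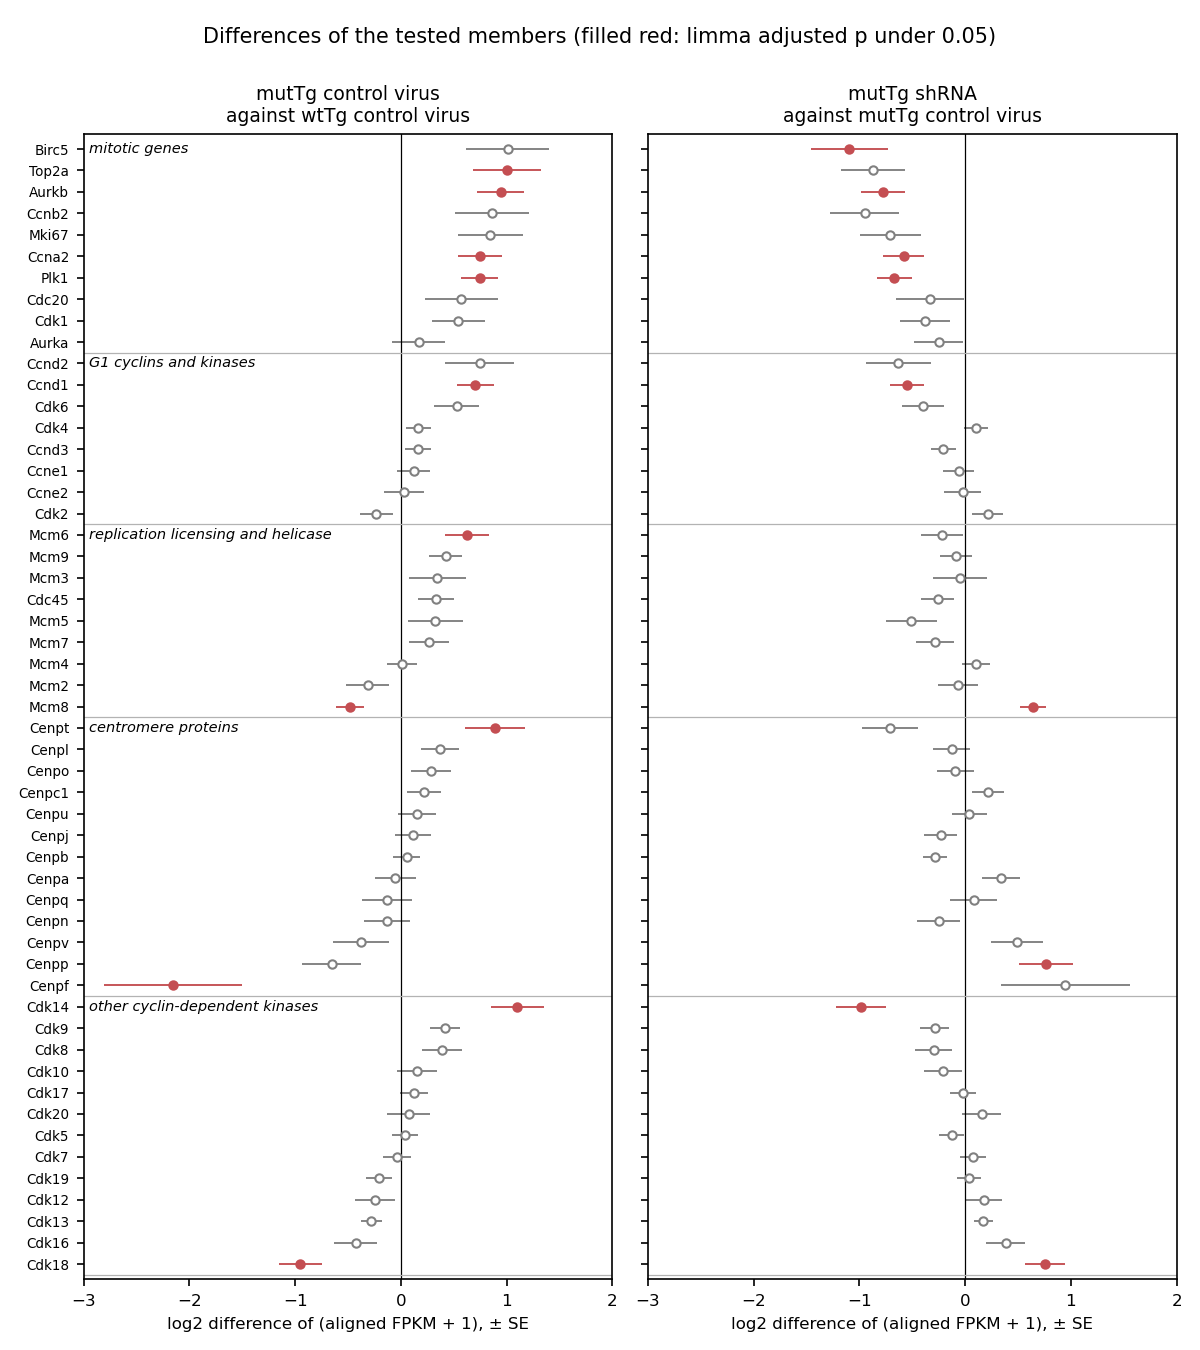
Log2 difference ± SE of the 53 tested members, grouped by role, in control-virus mutTg against wtTg hearts (left) and in shRNA against control-virus mutTg hearts (right). Filled red points have a limma adjusted p under 0.05. The comparisons share the control-virus mutTg hearts. The mitotic genes lie right of 0 on the left and left of 0 on the right, while each other group has genes on both sides. On the left 7 of 8 G1 genes and 7 of 9 licensing genes lie right of 0. On the right 6 of 8 and 7 of 9 of them lie left of 0. Cenpf, counted with the centromere proteins, is at -2.15 on the left.

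Other genes of the cell cycle were counted in the same fits, to be read against the share of all genes called: 12.6% higher and 11.7% lower in control-virus mutTg against wtTg hearts, 12% higher and 12.2% lower in shRNA against control-virus mutTg hearts, and 12.1% higher and 13.9% lower in untreated mutTg against wtTg hearts. Of 35 tested mitosis genes that are not members, 6 rose and 3 fell in control-virus mutTg against wtTg hearts (median 0.63), 1 rose and 7 fell in shRNA against control-virus mutTg hearts (median -0.53), and 11 rose and 2 fell in untreated mutTg against wtTg hearts (median 0.57). Cdca8, borealin of the passenger complex with Aurkb and Birc5, rose by 1.06 (adjusted p = 0.0177), fell by 0.77 (adjusted p = 0.0381) and rose by 0.87 (adjusted p = 0.0310) in the same order. The checkpoint kinase Bub1b rose by 0.71 (adjusted p = 0.0323), fell by 0.75 (adjusted p = 0.0233) and rose by 0.74 (adjusted p = 0.0270). Sgol2, a shugoshin that protects centromere cohesion, ran the other way in the control-virus mutTg comparison, falling by 0.96 against wtTg hearts (adjusted p = 0.0189), and rose by 1.03 in shRNA hearts (adjusted p = 0.0157). Of 40 tested DNA replication genes, 1 rose and 2 fell, 6 rose and 1 fell, and 0 rose and 3 fell, again in that order.

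Gmnn, coding for geminin, which blocks the loading of the Mcm helicase, was 117, 134, 113 and 43.6 aligned FPKM in shRNA hearts, 30.1, 37.3 and 24.8 in control-virus mutTg hearts, 29.3, 27.9 and 21.1 in untreated mutTg hearts and 113, 109 and 103 in wtTg hearts. The mutTg hearts without the shRNA lay below all others, and shRNA replicate 8 lay between the others of its group and the mutTg hearts without the shRNA. Gmnn fell by 1.80 in control-virus mutTg (adjusted p = 0.00726) and by 2.03 in untreated mutTg against wtTg hearts (adjusted p = 0.00439), and rose by 1.60 in shRNA against control-virus mutTg hearts (adjusted p = 0.0113). Pcna, the sliding clamp of the replication fork, rose by 0.43 in control-virus mutTg against wtTg hearts (adjusted p = 0.0399) and fell by 0.47 in shRNA against control-virus mutTg hearts (adjusted p = 0.0246).

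Of 6 tested inhibitors of cyclin-dependent kinases, 2 rose and 1 fell in control-virus mutTg against wtTg hearts, where 12.6% of all genes rose and 11.7% fell. Cdkn1a, coding for p21, was 11.3, 18.1, 31.4 and 62.3 aligned FPKM in shRNA hearts, 96.3, 108 and 99.9 in control-virus mutTg hearts, 46.5, 66.2 and 61.6 in untreated mutTg hearts and 12.5, 35.3 and 27.1 in wtTg hearts. The control-virus mutTg hearts were the highest, above every untreated mutTg heart. Cdkn1a rose by 2.10 in control-virus mutTg against wtTg hearts (adjusted p = 0.0156) and fell by 1.96 in shRNA against control-virus mutTg hearts (adjusted p = 0.0183). Cdkn1c, coding for p57, was 32.1, 37.0, 33.8 and 17.7 aligned FPKM in shRNA hearts, 13.5, 14.4 and 14.1 in control-virus mutTg hearts, 12.2, 10.0 and 12 in untreated mutTg hearts, and 30.3, 32.6 and 32.8 in wtTg hearts, and fell by 1.13 in control-virus mutTg against wtTg hearts (adjusted p = 0.00747). Of 17 tested Rb, E2F and DREAM genes 0 rose and 4 fell in control-virus mutTg against wtTg hearts, where 12.6% of all genes rose and 11.7% fell; Lin52, of the DREAM core, fell by 0.78 (adjusted p = 0.00851). Foxm1, an activator of mitotic genes, fell by 0.69 in shRNA against control-virus mutTg hearts (adjusted p = 0.0284). Of 14 genes of the anaphase-promoting complex, which ends mitosis, 0 were called in control-virus mutTg against wtTg hearts by limma. An unadjusted p under 0.05 was found for 2. Over all genes 24.4% were called there and 40.5% had an unadjusted p under 0.05. In untreated mutTg against wtTg hearts 0 of the 14 rose and 3 fell (12.1% and 13.9% of all genes). In shRNA against control-virus mutTg hearts 1 rose and 1 fell (12% and 12.2%).

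Mcm7 also hosts the microRNAs miR-25, miR-93 and miR-106b, which lie within its span on chromosome 5 (138164583 to 138172111, GRCm38.p6, minus strand). MicroRNAs pair with target RNAs mainly through the seed, bases 2 to 8, in capitals here. The main arms are printed as RefSeq gives them, and they show that miR-93 and miR-106b share a seed while miR-25 has another.
miR-25-3p: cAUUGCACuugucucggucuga
miR-93-5p: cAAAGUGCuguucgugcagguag
miR-106b-5p: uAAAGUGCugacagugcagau

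Mcm7 itself was 4.58, 5.99, 6.85 and 6.87 aligned FPKM in shRNA hearts, 7.62, 7.95 and 7.05 in control-virus mutTg hearts, 5.70, 7.57 and 7.95 in untreated mutTg hearts and 4.38, 6.58 and 7.77 in wtTg hearts, with no call. The shRNA hearts lay just below the control-virus mutTg hearts, a difference of -0.28 (adjusted p = 0.252). In the small RNA libraries, whose rows are named by hairpin, mir-25 was 657656 to 848753 FPKM as deposited in the 4 shRNA hearts, 494541 to 674218 in 3 control-virus mutTg hearts, 581667 and 625959 in untreated mutTg and 464761 and 617416 in wtTg hearts. None of the 3 was called in any of the 4 comparisons by limma, and neither was any of the 280 small RNA rows tested (0%). The smallest p was 0.0415 for mir-25 in shRNA against wtTg hearts (difference 0.46, adjusted p = 0.658), followed by 0.0466 in shRNA against control-virus mutTg hearts (difference 0.40, adjusted p = 0.331). For mir-93 the control-virus mutTg hearts were split, with 9504 FPKM in replicate 1 and 34554 and 33524 in replicates 2 and 3. The shRNA hearts had 8414 to 13893 FPKM, the untreated mutTg hearts 12442 and 16333, and the wtTg hearts 4985 and 14443.

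**Figure D5:**
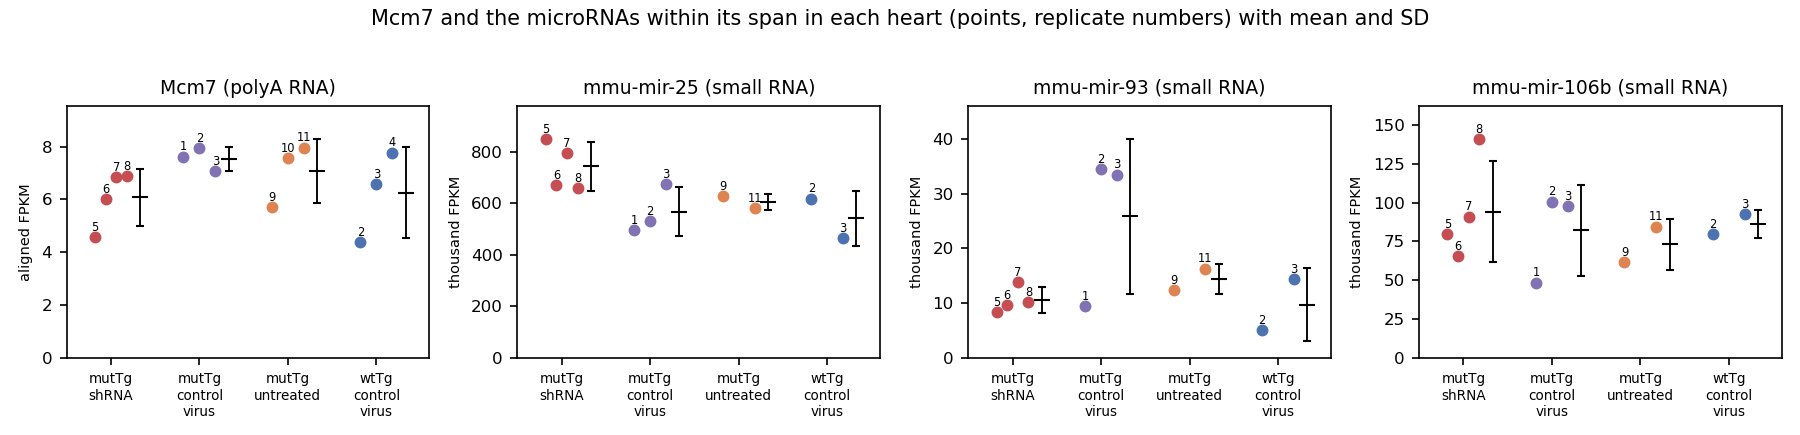
Mcm7 in aligned FPKM (left) and the microRNAs within its span as deposited FPKM on axes scaled as labelled, in each heart, with replicate numbers and the group mean and SD in black. For Mcm7 the shRNA hearts lie below the control-virus mutTg hearts (at most 6.87 against at least 7.05 aligned FPKM) and the other groups overlap both, and mir-93 is high in control-virus mutTg replicates 2 and 3 but not in replicate 1, at 9504 FPKM.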

How the data were processed

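Expression came from deposited tables of FPKM values, 13 polyA and 11 small RNA libraries, that the authors made per the submitters' processing notes with FastQC 0.11.2, STAR 2.40, Cufflinks 2.2.1 and Cuffdiff on mouse build mm9; no source used here gives the role of each tool, the annotation or the read depth. Each polyA library was divided by its median shift over the 13875 genes above 0 in all libraries. The values log2(aligned FPKM + 1) of 12938 genes with a mean of at least 1 were fitted with limma 3.58.1 in R 4.3.3 over the 4 groups together (eBayes with trend, two-sided), and called at a Benjamini-Hochberg adjusted p under 0.05 over all genes of a comparison. Fold changes are on this scale, so the added 1 understates those of low genes. Small RNA was fitted likewise on deposited FPKM. The procedure was tested on simulated data.

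Members, gene lists and alternatives were chosen with earlier results of these data known. Named were members called in a comparison, a fixed set of members with Cdkn1a, up to 4 called genes of each other list with the smallest p, and the 3 microRNAs; values of other members were named after they were seen. Sex was taken as male where Ddx3y was above 5 FPKM. The labels number the hearts, and p-values measure the spread between these samples. Alternatives were the deposited scale, quantile normalization, another pseudocount and other filters, robust eBayes, the compared groups alone, sex as a covariate, a replicate block and leaving out each library. Replicate numbers 2 and 3 occur in both control-virus groups but mark animals of different genotype; the deviations of same-numbered hearts correlated at -0.18 and -0.11, so they were not taken as pairs.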

Additional observations from a re-analysis of the deposited data

Results flagged for a closer look

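Among the 4 shRNA hearts, 1 library lay far from the other 3 in 4 of the 37 genes checked by the size of the gap relative to the group's range (Dixon's test at the 95% level); chance alone flags about 1 in 20 groups. In replicate 8, Bub1 was 0.674 aligned FPKM, against 0.102 to 0.161 in the other shRNA hearts. In replicate 6, Mcm2 was 6.30, Ccne2 2.68 and Cdk4 85.2 aligned FPKM, each the highest of its group. Replicate 6 was also the least deeply sequenced library (relative depth 1.00) and replicate 8 had the largest median shift (0.80). The part of either in these values was not tested.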

How the results depend on the processing

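Of the 31 member differences called, 0 reversed under any alternative tried, but most were no longer called under some. Only Cdk14, Cdk18 and Mki67 in untreated mutTg against wtTg hearts stayed called in all 16 alternatives. In shRNA against control-virus mutTg hearts Ccna2 stayed called in 2 of 16, Birc5 in 3 and Cenpp in 4. Mcm6 in control-virus mutTg against wtTg hearts stayed called in 4 of 17. Shares of all genes called follow in brackets. Member calls in control-virus mutTg against wtTg hearts (11) were 2 on the deposited scale (9.5%) and 18 with only the compared groups fitted (41.2%). They were 0 with sex as a covariate (2.54%) and 7 with sex and without shRNA replicate 8 (27.7%). Leaving out each library in turn gave 2 to 20 (4.14% to 39.7%). In shRNA against control-virus mutTg hearts (9 calls) they were 5 after quantile normalization (24.5%) and 0 with only the compared groups (0.24%). They were 0 with sex as a covariate (0.186%), and 1 to 23 with each library left out (4.05% to 48.2%). In untreated mutTg against wtTg hearts (11) they were 7 on the deposited scale (20.7%) and 17 with only the compared groups (37.8%). They were 18 with sex and without replicate 8 (40.6%), and 5 to 18 with each library left out (6.36% to 39.9%). The other 2 comparisons stayed at 0 calls throughout, and so did the microRNAs. The deposited scale moved the median of all genes to -0.14, 0.47 and -0.33 in the 3 comparisons. With the replicate number as a block, fitted on the control-virus groups, 8 members were called, where 24.3% of all genes were called. Of these 8, 7 were also called without it. Over all genes, calls in control-virus mutTg against wtTg hearts ran from 328 to 5324 (3152 as reported), in shRNA against control-virus mutTg hearts from 24 to 6238 (3136), in shRNA against wtTg hearts from 0 to 727 (11, the highest without replicate 8), in control-virus against untreated mutTg hearts from 0 to 6 (0) and in untreated mutTg against wtTg hearts from 823 to 5247 (3363). With 3 or 4 hearts a group, these counts rest on the shared spread, which shRNA replicate 8 widens. The low genes rest on few fragments, such as 1 to 3 of Bub1 in wtTg hearts.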
